A study of Mus musculus with 8 samples.

Results

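The comparison described here set a mouse embryonic stem cell library lacking a long noncoding RNA against its wild-type counterpart at day 0, before neural differentiation. Its members were the 2 day 0 libraries labelled LincNDIME_KO (here KO) and wild type (WT), of 8 libraries in the series. Genes were compared by RPKM, which scales a gene's reads to its length and to the depth of the library. Of 19011 genes in the day 0 table, 12002 had a mean of 1 RPKM or more over KO and WT and were counted as measured. Their ratio was the log2 of (KO + 1) over (WT + 1), and a gene was called higher or lower at 2-fold or more, a log2 ratio of 1.

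All libraries came from 46C, an embryonic stem cell line with a fluorescent reporter in the neural gene Sox1, labelled as strain C57BL/6. At day 0 the cells grew on irradiated embryonic fibroblasts, the feeder cells, in serum medium with the cytokine LIF, and the same holds for KO and WT. The other day 0 libraries carried a control hairpin RNA (shCtrl) or were labelled with a hairpin against Mef2c (shMef2c), and the same 4 groups were profiled at day 5 of neural differentiation. Each group is 1 library. The extent of the deletion, and whether the KO line is 1 clone, are not given in the sources used here. With 1 library a side there is no replicate check and no p-value, and a difference between lines, cultures or dishes cannot be told apart from an effect of the deletion. The 2 further day 0 libraries were therefore used as a yardstick of how far libraries of this line lay apart. The labels do not say whether the hairpin lines were grown alongside KO and WT.

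Embryonic stem cells hold a network of transcription factors, with Pou5f1, Nanog and Sox2 at its centre, that keeps them undifferentiated while ready to enter any germ layer. LIF acts through Stat3 to hold the naive state, whereas Fgf signalling, and Nodal with its inhibitors Lefty1 and Lefty2, prepare cells to leave it. A small share of cells in such cultures passes through a state resembling the 2-cell embryo, marked by the Zscan4 genes. Long noncoding RNAs are transcripts without a protein product, several of which act on neighbouring genes. The study's title places NDIME in an axis with Mef2c, which encodes a MADS-box factor active in muscle and in neurons.

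Estimated reads assigned to genes numbered 20883674 in WT, 20312032 in KO, 20769916 in shCtrl and 20700342 in the library labelled shMef2c, so depth was close to equal. The day 0 table has no gene named NDIME, so the deletion itself could not be checked. Mef2c was near the limit of measurement in all 4 libraries, at 0.24 RPKM in KO and 0.23 in WT, from 26 and 29 reads. It stood at 0.16 RPKM in shCtrl and 0.37 in the library labelled shMef2c, from 20 and 44 reads. That last library thus had no less Mef2c than shCtrl. The share of Mef2c reads in KO was 0.922 of that in WT, with an exact (Clopper-Pearson) 95% interval of 0.522 to 1.62. Such intervals, here and below, cover counting error only. Mef2a (5.40 against 5.03 RPKM) and Mef2d (11.2 against 12.1 RPKM) also differed little between KO and WT, and Mef2b stood at 0.64 against 0.75 RPKM. Among the 5 annotated neighbours on either side of Mef2c on chromosome 13, 7 of 10 were measured, and their ratios ran from -0.27 (Cetn3) to 0.57 (Cox7c, a respiratory chain subunit).

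The cells of both libraries had the profile of stem cells. All 8 stem cell markers were high, with a summed level of 3703 RPKM in KO and 3028 in WT, against 3494 in shCtrl and 3583 in the library labelled shMef2c. Pou5f1 stood at 551 RPKM in KO and 542 in WT, Sox2 at 237 and 247, and Nanog at 528 and 370. Markers of endoderm were under 1 RPKM for 7 of 7 genes in every library. Those of mesoderm summed to 9.29 RPKM in KO and 9.23 in WT, those of neural progenitors to 18.8 and 22.7. Feeder fibroblast markers were present, 10 of 10 above 1 RPKM, at a summed 196 RPKM in KO, 210 in WT, 215 in shCtrl and 350 in the library labelled shMef2c. A longer list of 30 measured fibroblast genes had no member called between KO and WT, with a median ratio of -0.01 and a range of -0.38 to 0.39. The feeder content of KO and WT was thus alike by this measure, and it is the library labelled shMef2c that held more (median 0.71 over WT). In bulk RNA, fewer cells of a kind and less RNA per cell cannot be told apart.

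KO had 162 genes 2-fold or more above WT (1.35% of those measured) and 190 below (1.58%). Those counts are best read beside the other libraries. Against shCtrl, 100 genes were higher (0.833%) and 116 lower (0.966%) in KO. The 2 control libraries differed from each other at 90 genes higher in shCtrl (0.755%) and 61 higher in WT (0.512%). The SD of the ratios over measured genes was 0.43 for KO over WT, 0.36 for KO over shCtrl, 0.32 for shCtrl over WT, 0.40 for the library labelled shMef2c over WT and 0.23 for it over shCtrl. KO and WT had the widest spread of these pairs. Of the 162 higher genes 60 were also 2-fold higher than in shCtrl, and of the 190 lower genes 72 were also 2-fold lower than in shCtrl.

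A stricter reading asks for which genes 1 library stood 2-fold apart from all 3 others, over 12065 genes with a mean of 1 RPKM or more in the 4. KO stood above the others for 40 genes (0.332%) and below them for 60 (0.497%). WT stood above for 20 (0.166%) and below for 35 (0.29%). shCtrl stood above for 0 and below for 3, and the library labelled shMef2c above for 0 and below for 4. These 2 libraries lay closest together of the pairs above (SD 0.23), so each had a near neighbour among its 3 others. Their counts were thereby held low from the start and are no like-for-like measure for those of KO and WT. Among the genes called between KO and WT, which were filtered on the mean of that pair and so include some outside the 12065, KO was the library apart for 45 of the 162 higher and 58 of the 190 lower, and WT for 34 and 20. Some higher genes are in both counts, among them Zscan4b, Zscan4c and Zscan4f, with KO at one end and WT at the other. For 90 and 112 of the called genes neither stood 2-fold apart from all 3 others. The results below take these groups in turn.

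**Figure D1:**
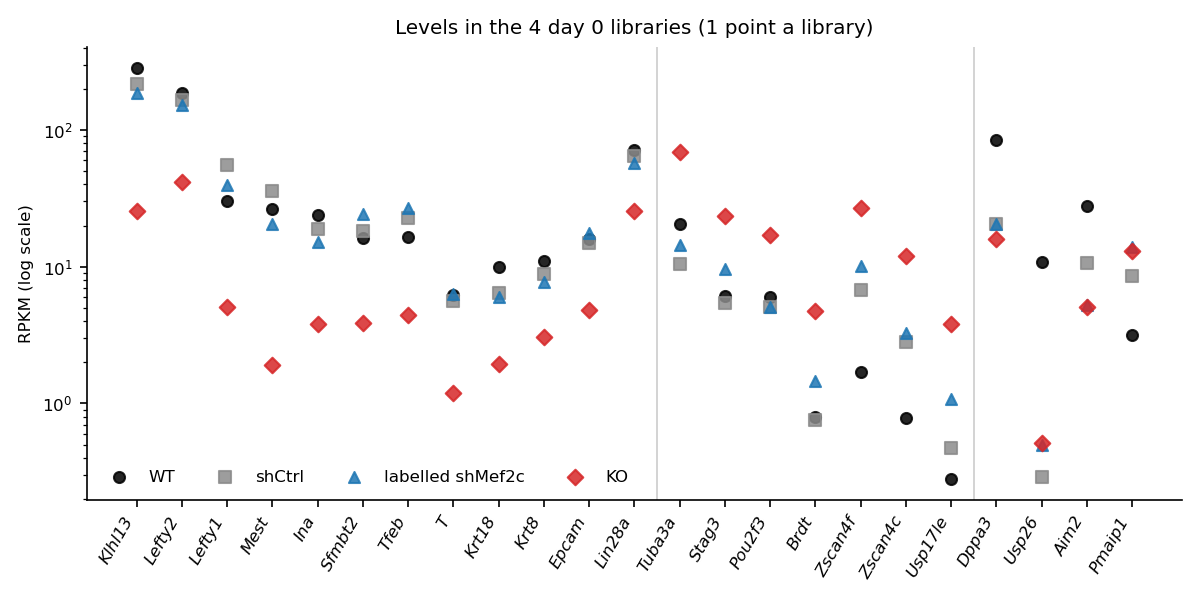
RPKM (log axis) of 23 genes in the 4 day 0 libraries, 1 point a library. The first 12 genes are lowest in KO, the next 7 highest in KO, and for the last 4 WT stands away from the other 3 libraries, as for Dppa3 at 84.9 RPKM against 16.0 to 20.6.

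The 2 lowest ratios belonged to Klhl13 and Mest. Klhl13, an X-linked substrate adaptor of a cullin ubiquitin ligase, stood at 286 RPKM in WT, 218 in shCtrl, 186 in the library labelled shMef2c and 25.5 in KO. Mest, an imprinted gene expressed from the paternal allele and encoding a hydrolase-like protein of mesoderm, stood at 26.6 RPKM in WT, 36.0 in shCtrl, 20.6 in the library labelled shMef2c and 1.90 in KO. KO was below each of the other libraries by 2.82 or more on the log2 scale for Klhl13 and by 2.90 or more for Mest, whereas those others lay within 0.62 of WT. By reads, the share in KO was 0.0898 of that in WT for Klhl13 (interval 0.0853 to 0.0945) and 0.0714 for Mest (0.0575 to 0.0878). At day 5 the pair parted. Mest stood at 306 FPKM in WT, 175 in shCtrl, 45.6 in the library labelled shMef2c and 5.99 in KO (FPKM, the day 5 unit, counts fragments in place of reads). Klhl13 stood at 38.3, 36.8, 79.7 and 55.4 FPKM in that order, so KO was no longer lowest.

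The 250 bases before the annotated start are shown for these 2 genes because they had the lowest ratios of all measured genes. Mest is shown at the first pair of its RefSeq starts because imprinting of this gene is tied to CpG methylation, and Klhl13 at the first of its starts. Sequences are from RefSeq, build GRCm38.p6, read 5′ to 3′ on the gene's strand, with CG dinucleotides in capitals. The set was chosen after its values were seen.
Mest first start, chr6:30733256-30733505, forward strand: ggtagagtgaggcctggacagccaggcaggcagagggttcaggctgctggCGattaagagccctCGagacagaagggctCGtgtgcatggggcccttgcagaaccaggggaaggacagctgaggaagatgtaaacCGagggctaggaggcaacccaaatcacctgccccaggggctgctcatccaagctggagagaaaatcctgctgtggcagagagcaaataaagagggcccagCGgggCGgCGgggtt
Mest second start, chr6:30737800-30738049, forward strand: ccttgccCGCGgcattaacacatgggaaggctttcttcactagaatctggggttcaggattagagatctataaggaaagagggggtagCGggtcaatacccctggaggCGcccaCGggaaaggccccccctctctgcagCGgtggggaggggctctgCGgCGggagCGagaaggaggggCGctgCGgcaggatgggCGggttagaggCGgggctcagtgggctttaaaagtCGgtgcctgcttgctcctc
Klhl13, chrX:23365083-23365332, reverse strand: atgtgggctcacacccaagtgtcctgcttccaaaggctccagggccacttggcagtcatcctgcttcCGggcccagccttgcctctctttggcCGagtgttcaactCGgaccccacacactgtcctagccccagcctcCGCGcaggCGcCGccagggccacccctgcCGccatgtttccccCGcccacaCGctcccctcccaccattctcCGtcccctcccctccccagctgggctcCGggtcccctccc
The first Mest window held 7 CG dinucleotides, the second 14 and the Klhl13 window 12, against a median of 16.0 over the 9638 measured genes matched in the promoter table and 6.0 over all 27025 promoters of that table. Methylation was not measured in these libraries.

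Mest is one of a list of imprinted genes, which does not hold every such gene (Sfmbt2, below, and Snurf, at 1.16 RPKM in KO, 4.02 in WT and 1.48 in shCtrl, are outside it). Of 36 measured imprinted genes, 4 were lower and 0 higher, beside 1.58% and 1.35% of all measured genes, with a median of -0.22 against 0.028. Besides Mest, these were Peg10 (10.99 RPKM in KO, 27.9 in WT, 19.2 in shCtrl, 10.3 in the library labelled shMef2c), Igf2 (5.56, 13.9, 12.3 and 13.6 in that order) and Peg3 (2.96, 7.86, 6.49 and 6.97). Igf2, a fetal growth factor, was lowest in KO with the other 3 close together. Peg10, derived from a retrotransposon, was as low in the library labelled shMef2c, so its level did not set KO apart. Genes of the DNA methylation machinery had a median of 0.06, with 0 of 17 called against WT. Against shCtrl the median was 0.02, with 3 lower and 0 higher, beside 0.966% and 0.833% of all genes. Dnmt3l, a cofactor of new methylation, stood at 30.8 RPKM in KO against 53.2 in WT, 81.7 in shCtrl and 90.7 in the library labelled shMef2c, and Dnmt3b, a methyltransferase, at 21.9 against 35.4, 47.3 and 51.3. Both were lowest in KO, within 2-fold of WT but more than 2-fold below shCtrl.

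Nodal inhibitors were among the lowest genes. Lefty1 stood at 5.09 RPKM in KO, 30.2 in WT, 55.4 in shCtrl and 39.3 in the library labelled shMef2c. Lefty2 stood at 41.4 RPKM in KO, 188 in WT, 166 in shCtrl and 152 in the library labelled shMef2c. KO lay clear of the range of the others for both, with read shares of 0.168 (0.142 to 0.199) and 0.22 (0.21 to 0.231) of WT. The ligand Nodal went the other way between KO and WT, with a ratio of 0.65, a call not reached, and a read share of 1.60 (1.47 to 1.75). WT was the low library for Nodal, though: its 878 reads compare with 1369 in KO, 1649 in shCtrl and 1811 in the library labelled shMef2c. Over the 20 measured genes of the Nodal and TGF-beta list, Lefty1 and Lefty2 were the only calls, and the median was -0.03.

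T (brachyury), the transcription factor of the primitive streak, stood at 1.19 RPKM in KO against 6.25 in WT, 5.63 in shCtrl and 6.35 in the library labelled shMef2c. Its read share in KO was 0.176 of WT (0.127 to 0.239, 48 against 281 reads). T lies on chromosome 17, where most genes were slightly lower in KO (below), but by far less. At day 5 it stood at 0.35 FPKM in KO, 40.5 in WT, 36.6 in shCtrl and 106 in the library labelled shMef2c. Of the 5 measured streak genes, T was called lower and Eomes and Cdx1 higher, with a median of -0.40 against WT and -0.78 against shCtrl. Wnt3 (0.44 RPKM in KO, 1.79 in WT, 1.47 in shCtrl) and Snai1 (3.48, 4.93 and 6.78) were below both controls without a call. Eomes was 6.53 RPKM in KO and 1.41 in WT, with 4.60 in shCtrl and 4.64 in the library labelled shMef2c, and Cdx1 was 17.2 in KO and 5.22 in WT, with 16.1 and 27.7 in the others. For Eomes and Cdx1 WT was the library apart.

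Simple epithelial keratins and their partners formed a further group lowest in KO. Krt18, a keratin filament protein, stood at 1.95 RPKM in KO against 9.94 in WT, 6.38 in shCtrl and 5.99 in the library labelled shMef2c. Its partner Krt8 stood at 3.06 against 11.1, 8.83 and 7.73, and Krt19 at 1.97 against 9.75, 7.92 and 7.90. The adhesion protein Epcam stood at 4.85 RPKM in KO against 15.8, 15.0 and 17.6, and the tight junction protein Cldn6 at 1.45 against 4.06, 9.25 and 10.5. KO lay below the range of the other libraries for each of the 5. Those were the 5 of 26 measured genes of the adhesion, matrix and epithelial list that were called lower, with 0 higher, beside 1.58% of all measured genes, and in all 5 KO was the library apart, beside 0.497% of genes with KO below the other 3. The list's median was -0.09, so the remaining genes stayed near 0. At day 5 none of the 5 was called against WT. Krt18 stood at 94.6 FPKM in KO, 80.0 in WT, 84.2 in the library labelled shMef2c and 223.5 in shCtrl. Krt8 stood at 89.0, 74.2, 95.4 and 179.7 in that order, and Krt19 at 14.6, 17.7, 20.1 and 29.6. For the keratins shCtrl was thus the highest library at day 5, and KO was above WT for Krt18 and Krt8. Day 5 ratios against shCtrl were -1.23 for Krt18, -1.01 for Krt8, -0.97 for Krt19, -0.79 for Cldn6 and 0.16 for Epcam.

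Trophoblast genes had the lowest median of the lists with 5 or more measured members, -0.58 over 12 genes (-0.55 against shCtrl, -0.06 for shCtrl over WT), with 4 lower and 1 higher, beside 1.58% and 1.35% of all measured genes. The lower ones were Krt18, Krt8, the growth factor receptor Fgfr2 and the transcription factor Gata2, and Eomes was the higher one. Krt8 and Krt18 are thus in both lists. Fgfr2 stood at 0.90 RPKM in KO and 3.10 to 3.60 in the others, and Gata2 at 0.60 and 2.30 to 2.45. Of the narrower trophoblast markers, 4 of 5 were under 1 RPKM in every library. Sfmbt2, an imprinted Polycomb-related gene of extraembryonic tissue, stood at 3.90 RPKM in KO against 16.3, 18.3 and 24.2 in WT, shCtrl and the library labelled shMef2c.

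Other genes with KO below all 3 other libraries had varied roles. Ina, a neuronal intermediate filament, stood at 3.84 RPKM in KO against 23.9 in WT, 18.8 in shCtrl and 15.3 in the library labelled shMef2c. Tfeb, a regulator of lysosomal genes, stood at 4.42 against 16.4, 22.8 and 26.8. Crmp1, which acts in axon guidance, stood at 1.85 against 8.10, 9.96 and 12.96, and Aass, a lysine-degrading enzyme, at 0.65 against 5.74, 5.01 and 4.00. Sprr2a3, of the cornified envelope, had 1 read in KO and 43, 49 and 41 in the others. Lin28a, an RNA-binding inhibitor of let-7 maturation, stood at 25.4 RPKM against 71.9, 64.7 and 57.8, and was the single call among 20 general pluripotency genes. Gli1, the readout of Hedgehog signalling, stood at 3.24 against 12.02, 13.8 and 9.64, and was also lower at day 5 (7.54 FPKM in KO, 19.4 in WT). For all 7 genes KO was at least 2-fold below the lowest of the other 3.

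With loci named Gm or LOC and a number left out, the highest ratios belonged to genes of the 2-cell-like state. With them, the predicted genes Gm8764 (29.9 RPKM in KO, 0.40 in WT) and Gm21761 (23.6 and 1.10) came first, at 4.46 and 3.55. Zscan4f, one of a cluster of zinc finger genes on chromosome 7 expressed in bursts by a few stem cells, stood at 27.1 RPKM in KO, 1.70 in WT, 6.70 in shCtrl and 10.2 in the library labelled shMef2c. Its relatives Zscan4b (14.1, 0.69, 3.45 and 4.59 in that order), Zscan4c (11.9, 0.78, 2.82 and 3.25) and Zscan4d (9.92, 0.75, 2.27 and 3.52) showed the same order. KO was highest and WT lowest for all 4 genes. The size of the difference thus depended on the control: the ratio of Zscan4f was 3.38 against WT and 1.87 against shCtrl. By reads, Zscan4f had 1003 in KO and 65 in WT, a share ratio of 15.9 (12.3 to 20.7). These genes are near-identical copies, so how reads were split among them is uncertain, and they are not independent measurements.

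Outside that cluster the pattern was alike. Usp17le, a deubiquitinase gene of the same state, stood at 3.79 RPKM in KO, 0.28 in WT, 0.47 in shCtrl and 1.08 in the library labelled shMef2c. Tcstv3 stood at 3.20, 0.20, 0.68 and 0.50 in that order (56, 4, 12 and 9 reads), and Tmem92 at 2.23, 0.22, 0.22 and 0.49. In all, 11 of 14 measured genes of the list were called higher and 0 lower, against 1.35% of all measured genes, and the median was 1.61. Against shCtrl the median was 1.33 with 9 higher, and shCtrl over WT gave 0.29. KO was the library apart for 8 of the 11. The 29 listed genes included 22 in the table, so 8 in the table were too scarce to count, and passing the filter favoured genes high in KO. Of the 162 higher genes, 40 are predicted or numbered loci with Gm or LOC names. The highest run of 15 neighbours in the genome, from Ahsa1 on chromosome 12, had a median of 1.91, and 7 of its members were of that numbered kind. It also held BB287469 (4.14 RPKM in KO, 0.37 in WT) of the same list. Most of its ordinary genes, such as Snw1 (62.9 and 64.7 RPKM) and Alkbh1 (22.2 and 20.4 RPKM), hardly differed. Ism2 (5.96 and 3.29 RPKM) was the exception, at a ratio of 0.70 that misses the call.

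Several germline genes were also highest in KO. Stag3, a meiotic cohesin subunit, stood at 23.4 RPKM in KO, 6.11 in WT, 5.43 in shCtrl and 9.54 in the library labelled shMef2c. Tuba3a, a testis tubulin, stood at 68.8, 20.5, 10.5 and 14.3 in that order, and Brdt, a testis bromodomain protein, at 4.73, 0.80, 0.76 and 1.45. KO was highest for all 3. The ratio of shCtrl over WT was -0.91 for Tuba3a, -0.15 for Stag3 and -0.03 for Brdt. The read share of Stag3 in KO was 4.06 times that in WT (3.67 to 4.51), of Tuba3a 3.35 times (3.06 to 3.66) and of Brdt 4.66 times (3.62 to 6.07). The X-linked homeobox gene Rhox13 (3.62 RPKM in KO, 0.70 to 0.93 in the others) and Pou2f3, a POU-domain factor (17.1 in KO, 5.04 to 6.03 in the others), were also furthest above, as was AA623943 (3.63 RPKM in KO, 0.32 to 0.69 in the others). Of 34 measured germline genes, 6 were higher and 2 lower, beside 1.35% and 1.58% of all measured genes, with a median of 0.23 against WT and 0.65 against shCtrl. The other 3 higher genes were Sohlh2, a factor of early germ cells (17.8 RPKM in KO, 7.15 in WT, 8.80 in shCtrl), Tex15 (5.64, 1.85 and 2.80) and Zcwpw1 (12.6, 5.75 and 6.77). The lower ones were Tdrd12, of the piRNA pathway (8.63, 36.0 and 21.2), and Sycp3, of the synaptonemal complex (5.60, 16.8 and 16.2).

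The promoters of the 3 germline genes in which KO stood above all 3 other libraries and which are described above are shown because germline promoters are known to carry CACGTG, the E-box of the Mga and Max complex, and GCGGGA, an E2F6-type site, through which stem cells silence them. CG dinucleotides are in capitals, and source, build and window are as above.
Stag3, chr5:138280259-138280508, forward strand: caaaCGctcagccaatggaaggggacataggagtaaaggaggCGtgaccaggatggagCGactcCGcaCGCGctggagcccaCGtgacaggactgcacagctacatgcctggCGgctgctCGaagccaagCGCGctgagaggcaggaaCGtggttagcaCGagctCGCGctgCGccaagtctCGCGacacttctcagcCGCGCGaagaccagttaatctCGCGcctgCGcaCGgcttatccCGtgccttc
Tuba3a, chr6:125286082-125286331, reverse strand: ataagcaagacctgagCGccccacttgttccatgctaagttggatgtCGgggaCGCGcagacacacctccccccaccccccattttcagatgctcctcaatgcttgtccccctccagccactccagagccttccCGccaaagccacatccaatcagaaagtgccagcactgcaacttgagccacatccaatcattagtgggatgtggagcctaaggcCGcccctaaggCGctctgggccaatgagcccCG
Brdt, chr5:107330944-107331193, forward strand: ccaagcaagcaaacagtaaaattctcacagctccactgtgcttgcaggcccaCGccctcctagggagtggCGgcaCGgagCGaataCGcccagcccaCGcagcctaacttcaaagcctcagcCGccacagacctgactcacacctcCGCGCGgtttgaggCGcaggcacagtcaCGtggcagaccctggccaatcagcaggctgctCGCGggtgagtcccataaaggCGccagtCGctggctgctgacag
Stag3 held 26 CG dinucleotides in its window, Tuba3a 8 and Brdt 16. CACGTG, searched on both strands, was found in the windows of Stag3 and Brdt, and GCGGGA or its reverse complement in that of Tuba3a. In the 28 matched germline genes CACGTG occurred in 35.7% and GCGGGA in 35.7%, beside 8.8% and 31.1% of the 9638 matched measured genes and 6.0% and 16.9% of all promoters in the table. Of the 5 matched germline genes that were higher in KO, 2 held CACGTG and 1 held GCGGGA. These are matches of letters and no measure of binding.

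For another set of genes, WT was the library apart, 2-fold or more from each of the other 3. Dppa3 (Stella), a maternal factor that protects against demethylation, stood at 84.9 RPKM in WT against 16.0 in KO, 20.6 in shCtrl and 20.6 in the library labelled shMef2c. Usp26, an X-linked testis deubiquitinase, stood at 10.8 in WT against 0.51, 0.29 and 0.50. Pnma5 (12.5 against 1.88, 2.86 and 3.98) and Aim2, a DNA sensor of the innate immune system (27.7 against 5.11, 10.6 and 5.21), followed the same order. On the other side, Pmaip1 (Noxa), a target of p53, stood at 3.17 RPKM in WT against 13.1, 8.51 and 13.9, and Tlx2 at 0.20 against 3.43, 1.79 and 1.83. Zbed5 was listed at 12.7 RPKM in WT against 48.9, 45.4 and 54.4, but its reads were 512 against 794, 794 and 812, so RPKM and reads give ratios of different size. Dcdc2c (11.98 RPKM in KO, 2.18 in WT, 6.10 in shCtrl, 4.26 in the library labelled shMef2c) and Ppp1r14d, a phosphatase inhibitor gene (8.17, 1.55, 4.69 and 3.80), were also among the 12 highest ratios, with KO at one end, WT at the other and the hairpin libraries between them. Ratios of the first genes of this group between KO and WT are large, while those between KO and shCtrl are under 2-fold: 0.23 for Usp26, -0.34 for Dppa3, -0.42 for Pnma5, -0.92 for Aim2, 0.57 for Pmaip1, 0.67 for Tlx2 and 0.10 for Zbed5.

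The p53 targets show this at the level of a list. Their median was 0.56 for KO over WT, with 1 of 25 called higher (Pmaip1), but 0.64 for shCtrl over WT and -0.14 for KO over shCtrl. The X-linked germline list likewise had a median of -0.49 against WT and 0.43 against shCtrl, and a median of -0.84 for shCtrl over WT. Within it Rhox10 was higher in KO against both (5.55 RPKM, with 0.39 in WT and 0.78 in shCtrl), while Rhox5 and Rhox6 were lower against WT alone at 2-fold (ratios -1.43 and -1.76 against WT, -0.68 and -0.73 against shCtrl). Of the Fgf and Erk list, Etv4, an Ets factor induced by Fgf, was highest in KO (44.5 RPKM, with 13.4 in WT, 19.2 in shCtrl and 16.7 in the library labelled shMef2c). The other calls of that list were Etv1 and Spry4, both lowest in WT, and Fgfr2.

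Other lists had few calls. Of 21 naive pluripotency genes only Dppa3 was called, with a median of 0.02. The LIF and Stat3 list had a median of -0.21 and 0 of 16 called, with Socs3, a feedback inhibitor of the pathway, at 22.4 RPKM in KO, 40.6 in WT, 36.2 in shCtrl and 38.1 in the library labelled shMef2c. Neural progenitor genes had 0 of 12 called (median -0.27, -0.09 against shCtrl), and neuronal genes 1 of 12, Ina. Notch genes had a median of -0.31 (-0.42 against shCtrl), 10 of 12 below 0 and 1 called, the ligand Dll3 (0.81 RPKM in KO, 3.52 in WT, 2.69 in shCtrl). Dtx1, a Notch-linked gene outside that list, was called lower against both controls, at 4.07 RPKM in KO, 9.30 in WT and 10.7 in shCtrl. Autism-associated genes had a median of 0.08 and 0 of 26 called, cell cycle genes 0.04 and 0 of 35, and Polycomb genes 0 of 28. Genes of oxidative phosphorylation had a median of 0.25 (0.19 against shCtrl), 28 of 32 above 0 and 1 called, Ndufa2, a subunit of complex I (45.4 RPKM in KO, 20.6 in WT, 27.4 in shCtrl). Interferon response genes had 3 of 28 lower than in WT, beside 1.58% of all genes, at a median of -0.20. They were Oasl2, Ifitm1 and Irf1, and none of these members reached 2-fold against shCtrl (-0.53, -0.88 and -0.37). The list does not hold every interferon-linked gene. Outside it, Gbp2b was called lower against both controls, at -1.99 against WT and -1.27 against shCtrl, from 5 reads in KO. Gbp2, Gbp3, Tgtp1, Igtp, Irgm1, Ifi35 and Epsti1 were called lower against WT only. Their ratios against shCtrl were -0.81, -0.57, -0.61, -0.21, -0.12, -0.1 and -0.29 in that order. Tgtp1, Igtp, Irgm1 and Ifi35 lie on chromosome 11, as does Irf1, and WT was the library apart over that chromosome (below).

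**Figure D2:**
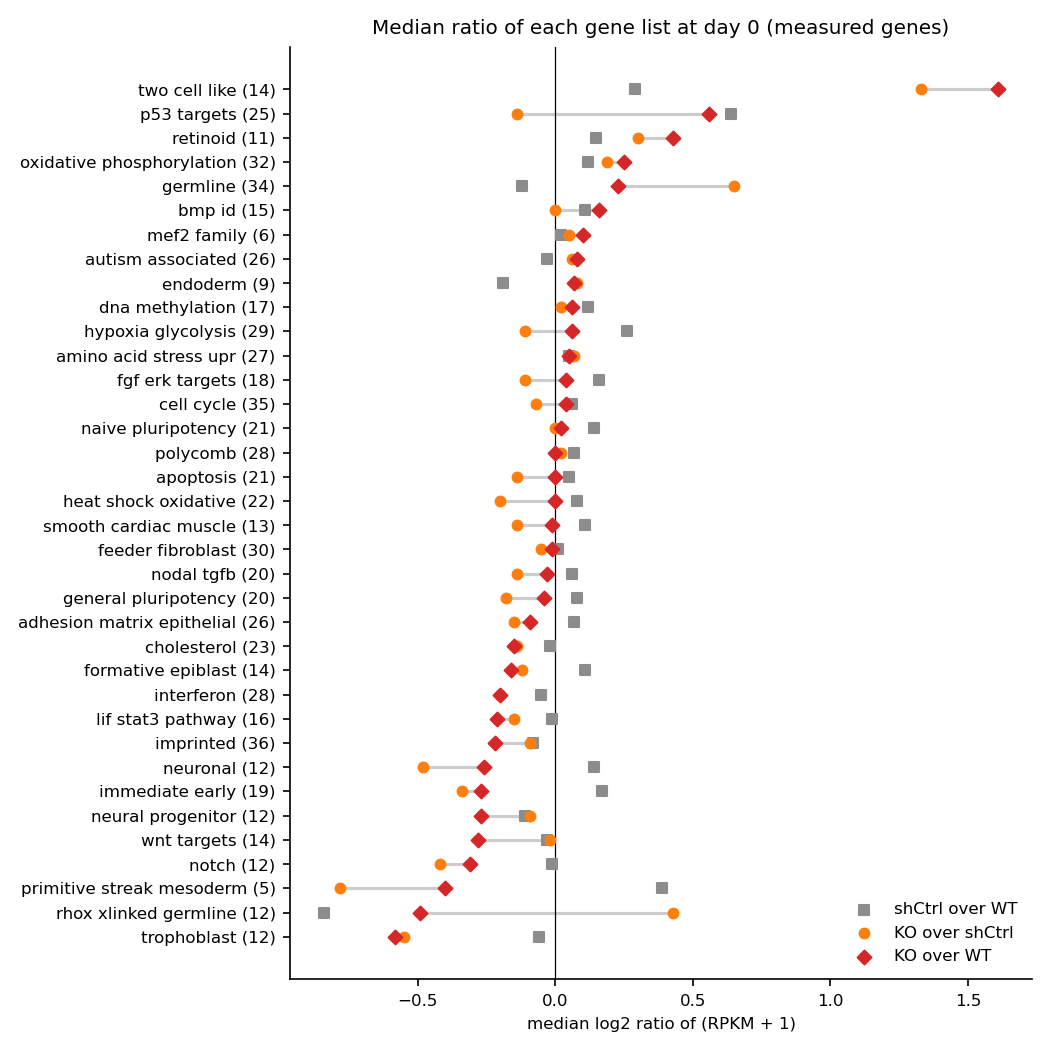
Median log2 ratio of (RPKM + 1) for each gene list with 5 or more measured genes (number in brackets), for KO over WT, KO over shCtrl and shCtrl over WT at day 0. The 2-cell-like list lies at 1.61 and 1.33 for KO and at 0.29 for the controls, while p53 targets lie at 0.56 against WT and -0.14 against shCtrl.

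The lower genes were unevenly spread over the genome. By chromosome, the median ratio of KO over WT lay between -0.01 and 0.11 for 17 chromosomes. It stood apart for 3: chromosome 11 at -0.38, chromosome 14 at -0.16 and chromosome 17 at -0.20. Chromosome Y, with 5 measured genes and a median of -0.90, was left out of that count. Chromosome 11 held 43 of the 190 lower genes, 4.32% of its measured genes. There the median of shCtrl over WT was -0.44 and that of the library labelled shMef2c over WT also -0.44, while KO over shCtrl was 0.06. WT at day 0 was thus the library apart over that chromosome, with 84.5% of 995 genes below 0 in KO over WT and 91.9% in shCtrl over WT. At day 5 the median of KO over WT for chromosome 11 was 0.03.

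Chromosomes 14 and 17 differed in KO against both controls. Chromosome 17 had a median of -0.20 against WT and -0.23 against shCtrl, with 73.3% and 79.8% of 610 genes below 0, and shCtrl over WT at 0.03. At day 5 its median was -0.28. On chromosome 14 the difference formed, at a running median of -0.4 or lower against both controls, 1 stretch of 189 measured genes in a row, from Tmem253 to Diaph3, a stretch drawn after its values were seen. The median ratio in it was -0.65 against WT and -0.68 against shCtrl, with quartiles of -0.87 and -0.35, and shCtrl over WT was 0.02. Of the 189 genes, 179 were below 0 against WT and 185 against shCtrl. The remaining 237 measured genes of the chromosome had a median of 0.14. At day 5 the median of the stretch was -0.83 over 173 genes, 167 of them below 0.

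Within that stretch the library labelled shMef2c over WT also had a median of 0.02. Levels of its members are given for KO, then for WT, shCtrl and the library labelled shMef2c. Prmt5, an arginine methyltransferase, stood at 47.2 RPKM in KO against 124, 106 and 96.2. Chd8, a chromatin remodeller associated with autism, stood at 13.4 against 23.9, 25.0 and 22.7. Fdft1, squalene synthase, stood at 14.6 against 31.9, 24.4 and 20.0, and Trim13, a ubiquitin ligase, at 6.78 against 34.4, 25.9 and 21.4. Fgf17, a growth factor gene also on chromosome 14, stood at 1.54 against 10.4, 7.60 and 4.00. The lowest run of 15 neighbours in the whole genome lay here, from Zfp395 to Kctd9, at -0.87 (-0.81 against shCtrl), with ratios of its genes from -1.10 (Cdca2) to -0.19 (Ptk2b). In it Elp3, a subunit of Elongator, stood at 23.9 RPKM against 44.6, 44.2 and 45.1, Bnip3l, a mitophagy receptor, at 22.9 against 45.6, 45.9 and 40.7, and Cdca2, a mitotic chromatin protein, at 12.6 against 28.3, 30.0 and 30.6. The stretch gave 30 of the 190 lower genes. Of the 60 genes with KO below all 3 others, 14 lay on chromosome 14 and 6 on chromosome 17. By the call against WT, 7.51% of 426 measured genes on chromosome 14 were lower and 1.64% of 610 on chromosome 17. The share over all measured genes was 1.58%, so the calls on chromosome 17 were near it. The Y-linked genes Eif2s3y (29.6 RPKM in KO, 57.4 in WT, 41.6 in shCtrl) and Ddx3y (10.5, 20.5 and 16.3) were at their lowest in KO as well. Their ratios of -0.93 and -0.90 miss the 2-fold call. Uba1y, also Y-linked (1.09, 4.06 and 2.78 RPKM), was called lower against WT at -1.28 but not against shCtrl at -0.85. DNA copy number was not measured, and its part in these differences was not tested.

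**Figure D3:**
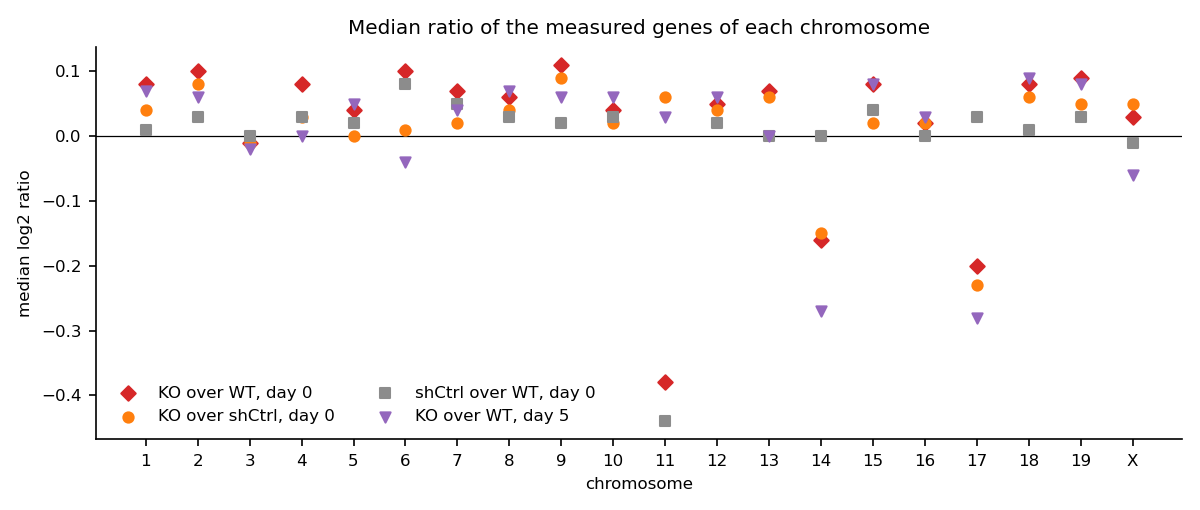
Median log2 ratio of the measured genes of each chromosome with 50 or more of them. Chromosome 11 stands at -0.38 for KO over WT and -0.44 for shCtrl over WT, whereas chromosomes 14 and 17 are low for KO against both controls and again at day 5.

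**Figure D4:**
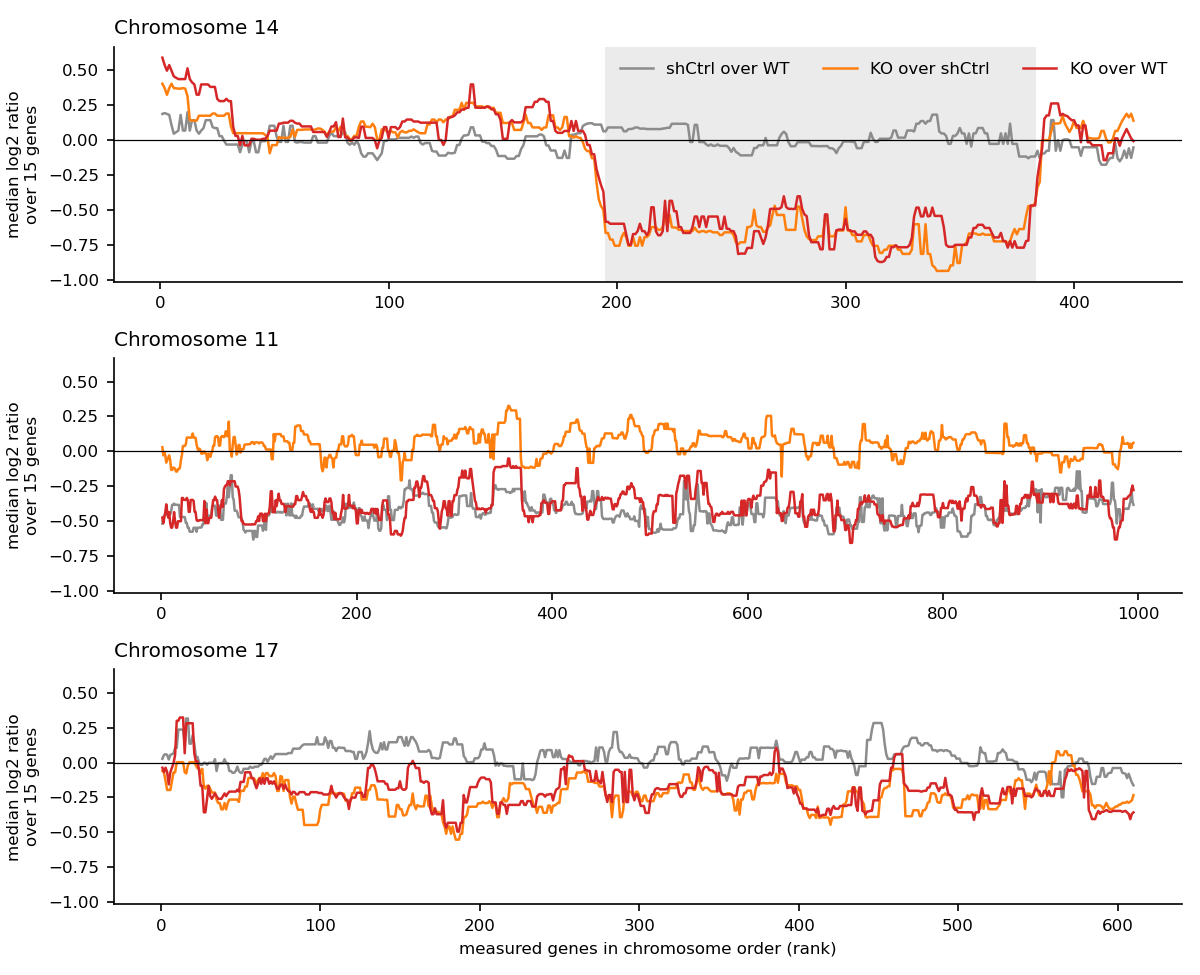
Median log2 ratio over 15 neighbouring measured genes, by gene rank along chromosomes 14, 11 and 17, for the 3 pairs of day 0 libraries. The shaded stretch of chromosome 14, 189 genes, has a median of -0.65 for KO over WT and 0.02 for shCtrl over WT.

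The day 0 calls were then followed into the day 5 libraries. Among 10858 genes measured on both days, KO at day 5 was 2-fold above WT for 360 (3.32%) and below for 226 (2.08%). Of 111 genes higher at day 0 and measured on both days, 50 (45.0%) were also higher at day 5 and 2 were lower, and these 50 are 13.9% of the day 5 higher genes. Of 157 lower genes, 18 (11.5%) were also lower at day 5 and 13 (8.28%) were higher, and these are 7.96% of the day 5 lower genes. The 2 days have different libraries and no sample in common. The difference between the directions itself was not tested. Of the 50 genes higher on both days, 10 are in the 2-cell-like list and 17 have Gm or LOC names, so many share sequence. Gm8764, Gm6763, Gm21293 and Gm21304 carry the same day 5 values, 10.84 FPKM in KO and 0.87 in WT. The 50 are thus not independent measurements. At day 5 whole lists also lay apart in KO over WT. Medians were 1.31 for naive pluripotency, 0.72 for general pluripotency and 1.63 for germline genes, and -0.93 for neural progenitor genes. At day 0 they were 0.02, -0.04, 0.23 and -0.27 in that order. How far such day 5 differences account for the calls shared by both days was not tested.

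Taken by the stricter reading, 19 of the 23 genes with KO above all 3 others and measured on both days were higher at day 5, with a median day 5 ratio of 2.13. Of all 40 genes with KO above, 21 are numbered or unnamed loci and 6 are in the 2-cell-like list. Many of them are thus similar copies and not independent measurements. Of the 56 with KO below, 9 were lower at day 5, 4 higher and 43 not called. With Gm and LOC loci again left out, the strongest of the genes higher on both days were Zscan4f (21.4 FPKM in KO and 1.5 in WT at day 5), Zscan4c (13.4 and 1.36), Zscan4d (9.68 and 0.87), Usp17le (4.39 and 0.50) and Stag3 (8.21 and 1.35). For these genes the library labelled shMef2c lay between KO and the controls at day 5. It held 8.80 FPKM of Zscan4f and 7.07 of Zscan4c, with 1.05 and 0.53 in shCtrl. Tuba3a stood at 36.5 FPKM in KO against 3.23 in WT, 1.70 in shCtrl and 5.51 in the library labelled shMef2c. The strongest of those lower on both days by the same rule were Mest and T, given above, then Chd3, a chromatin remodeller subunit (3.21 RPKM in KO and 11.4 in WT at day 0, 10.6 and 37.6 FPKM at day 5), Cadm4, a cell adhesion molecule (2.31 and 7.49, then 4.97 and 16.6), and Miip (0.95 and 6.04, then 4.74 and 13.5). Against shCtrl, the day 0 ratio missed the call for Chd3 (-0.93) and Cadm4 (-0.87) but not for Miip (-1.45). At day 5 the ratios against shCtrl were -1.41, -1.94 and -1.22 in that order. Chd3 lies on chromosome 11, where WT was the library apart at day 0.

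**Figure D5:**
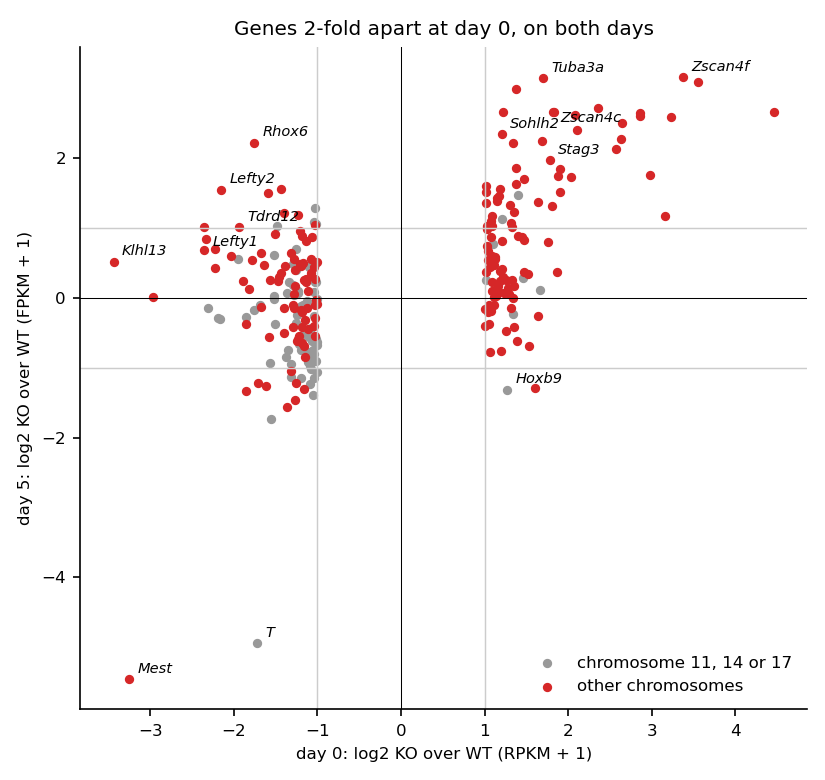
Day 0 against day 5 log2 ratio of KO over WT for the 268 genes 2-fold apart at day 0 and measured on both days, with genes of chromosomes 11, 14 and 17 in grey. Of the higher genes 50 lie above 1 at day 5, among them Zscan4f at 3.17, and 126 of the 157 lower genes lie within 2-fold, with Mest at -5.46 and T at -4.94 below them.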

How the data were processed

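Polyadenylated RNA was sequenced from 46C cells, 1 library per group, and groups were taken from the labels. For day 0 the authors deposited RPKM values beside estimated read counts (expected counts, not all whole) in 1 table, per the file headers. For day 5 they deposited expected counts and FPKM per library, per the file headers, and genes absent from 1 library's list were taken as 0. The submitters' processing notes name mm9, RSEM, Bowtie, Bowtie2, HISAT and HISAT2, without roles or versions. No source used here says if reads were counted by strand, so overlapping genes cannot be told apart. Ratios were log2 of (value + 1) with a mean of 1 or more, and calls were at 2-fold. The pseudocount makes ratios of scarce genes smaller than those of their values. Depth was 20312032 to 20883674 estimated reads, and exact 95% intervals on shares of reads rounded to whole numbers cover counting error only. Of the day 0 symbols 26 had become dates and were restored by gene identifier. Chromosome and gene order came from RefSeq (GRCm38.p6) for 18873 genes, a build other than mm9, so no positions of genes are given beyond the promoters, which are RefSeq's own. The calling was tested on simulated data. The members, gene lists and comparisons were chosen with earlier results of these data known. Named genes are the Mef2 genes, the 12 highest and 12 lowest ratios, the 10 furthest above and below all 3 other day 0 libraries, up to 4 members with the largest ratios from every list, 5 each way called on both days, and the genes of the lowest and highest runs of 15 neighbours. Gm, Rik, LOC and small RNA genes were left out. The values of 2 further genes are not reported here. Genes named beyond these were chosen after their values were seen. Alternatives used edgeR 4.0.16 (TMM factors) and DESeq2 1.42.0 (size factors) on rounded estimated counts, in R 4.3.3.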

Additional observations from a re-analysis of the deposited data

Results flagged for a closer look

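The genes given here are those, among reported genes, for which KO was called in opposite directions against WT on the 2 days. Against shCtrl, the day 0 call was met by Lefty1 (-3.21), Lefty2 (-1.97) and Tdrd12 (-1.21) but by none of the other genes given, among them Oasl2 (-0.53), Irf1 (-0.37), Irgm1 (-0.12) and Rhox5 (-0.68). The difference between days was not tested, and each day has 1 library a side. Lefty1 had a ratio of -2.36 at day 0 and 1.02 at day 5, and Lefty2 -2.15 and 1.55. A pair of X-linked homeobox genes did the same, Rhox6 (-1.76, then 2.23) and Rhox5 (-1.43, then 1.57), as did Tdrd12 of the piRNA pathway (-1.94, then 1.01). Interferon-linked genes were Oasl2 (-1.59, then 1.51), Irf1 (-1.02, then 1.29) and Irgm1 (-1.04, then 1.09). The metalloprotease gene Adam19 went from -1.48 to 1.04, Rab3il1 from -1.02 to 1.04 and St6galnac2 from -1.02 to 1.05. In the other direction were 2 homeobox genes, Hoxb9 (1.27, then -1.31) and Nkx1-2 (1.60, then -1.29). Irf1, Irgm1, Adam19, St6galnac2 and Hoxb9 lie on chromosome 11, where WT was the library apart at day 0. At day 5 the library labelled shMef2c was above WT for every gene given. It held 221 FPKM of Lefty1 against 42.2 in WT, and 130 of Rhox5 against 31.4. For Hoxb9 (11.7 against 1.98) and Nkx1-2 (13.8 against 3.12) KO alone of the perturbed libraries was below WT.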

How the results depend on the processing

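The counts depend on where the line is drawn. For genes higher and lower in KO than WT (162 and 190 as reported), a pseudocount of 0.1 gave 319 and 334, a mean of 5 or more 87 and 117, values rescaled to a common total (TPM) 262 and 321, a 1.5-fold call 757 and 803, a 4-fold call 26 and 13, shCtrl as control 100 and 116, and both controls required 60 and 72. Centring and TMM or DESeq2 scaling left both counts within 1.5 times. Without chromosomes 11, 14 and 17, an alternative chosen after seeing the data, 105 lower genes remained in the count. For KO above and below all 3 others (40 and 60), the pseudocount of 0.1 gave 65 and 126 and the 1.5-fold call 151 and 281. The mean of 5 gave 12 above, and leaving out the 3 chromosomes 35 below. For higher and lower on both days (50 and 18), the 1.5-fold call gave 154 and 172 and the mean of 5 gave 18 and 7. The pseudocount of 0.1 gave 49 lower, and leaving out the 3 chromosomes 9. The lowest median over 15 neighbours (-0.87) was -1.02 at the pseudocount of 0.1, -0.75 with no filter and -0.39 without the 3 chromosomes. The highest (1.91) was 3.10, then 0.66 at a mean of 5 and 1.25 against shCtrl. Lists with a median of 0.5 or more in size numbered 5, and 2 with no filter. The p53 list turned from 0.56 to -0.14 against shCtrl. Leaving out genes named only as list members or after their values were seen, 41 named genes were called against WT. Of these, 40 were measured against shCtrl and 11 of those were no longer called. No paired analysis was possible because each group has 1 library. A further limit is the lack of replicates: a second KO or WT culture was not part of these data, and scarce genes such as Mef2c lie near their counting limit.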
